A study of Oryza sativa with 35 samples.

Results

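Kinesins are motor proteins that act on microtubules, and many of them walk along these. In the RefSeq annotation, 35 rice genes carry a kinesin symbol or synonym made of KIN, a family number and a letter, such as KIN14B. Of these, 32 have at least 1 probe set on the array that is annotated with that gene alone, out of 17905 rice genes that have one, and the other 3, KIN14D, KIN14P and KIN12F, were not analysed here. The 32 genes have 36 probe sets among the 57258 rice probe sets of the array, and each gene was read at its brightest probe set over all 35 arrays. They comprise 14 KIN14 genes, 7 KIN7 genes, 3 KIN10 genes, 2 genes each of KIN5, KIN12 and KIN13, and 1 gene each of KIN4 and KIN8. Genes that are called kinesins by other symbols were not counted.

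Total RNA came from organs of the rice cultivar Nipponbare at heading, the stage at which the panicle emerges. The plants grew on soil in a greenhouse, irrigated and with added artificial light, and the labels name no treatment or mutation. There were 3 arrays each of the unopened flower (before anthesis), the branches of the panicle, both ends of internode I (top and basal part), node I, node II, and 3 parts of the flag leaf blade (tip, middle and base). The flag leaf sheath has 3 arrays of its top part and 2 of its basal part. Single arrays of undivided blades (flag leaf, leaf 2 and leaf 4, numbered downwards) entered no test. The repeats are labelled as biological replicates, with no word on separate plants, so p-values cover only the spread among these samples. In whole organs, fewer cells of a type and less RNA per cell cannot be told apart.

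As background, many plant kinesins work in dividing cells or on the microtubules under the cell surface. KIN5 motors keep the spindle poles apart, and NACK-type KIN7, KIN10 and KIN12 motors serve the phragmoplast, the structure that builds the new wall between daughter cells, as known from Arabidopsis and tobacco. KIN4 and KIN13 motors act on microtubules in growing and differentiating cells, where microtubules guide cellulose deposition. Those KIN14 motors that walk do so towards the minus end, unlike most other kinesins, and the family has expanded in plants.

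Values are log2 of the deposited signal after quantile normalization over all arrays, called log2 signal below. The median of all values was 5.83, and array medians before normalization ranged from 5.39 to 6.36. Replicates of the groups of 3 correlated at r of 0.905 to 0.931 over all 57258 rice probe sets, and the 2 sheath base arrays at 0.885. Markers of the flower and 1 of 2 node markers went clearly with the organ labels. A list of 7 flower MADS genes had a mean log2 signal of 12.59 in the flower and between 4.67 and 6.63 in the other replicated organs. The silicon transporter gene Lsi2 had a mean of 12.43 in node I and 12.3 in node II, against 4.04 at most in the other replicated organs. Lsi6 set the nodes apart less, at 14.83 and 14.63 against 14.08 at the sheath base and 13.69 at the sheath top. All 32 kinesins passed the filter on dim probe sets, which 38673 probe sets passed. A gene was called at an adjusted p under 0.05 in limma, adjusted over all of these probe sets, together with a change of at least 2-fold. Levels are compared between organs for 1 gene at a time, never between genes, because probe sets differ in brightness.

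The kinesins fell into a large group that was highest at the base of internode I and smaller groups that were highest in node II, the sheath base, the flower or the leaf blade. The internode base held the highest mean of 18 of the 32 genes, or of KIN4A, KIN5A, KIN7C, KIN7D, KIN7F, KIN7K, KIN8B, KIN13A, KIN13B and 9 KIN14 genes, while it held the highest mean of 18.4% of all probe sets tested. Node II was highest for KIN5C, KIN7A, KIN10A, KIN10C and KIN14E, against 8.6% of all probe sets. The sheath base was highest for KIN7L, KIN10B, KIN12C, KIN12E and KIN14N, against 6.77%. The flower was highest for KIN7J and KIN14R, against 12.3%, and the blade tip for KIN14K and KIN14L, against 11.8%. For 17 of the 32 genes, every array of the highest organ lay above every array of the next organ, as it did for 23.9% of all probe sets tested. On the deposited scaling, KIN7L, KIN10A, KIN12E and KIN14M had another highest organ, and the other 28 genes kept theirs.

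**Figure D1:**
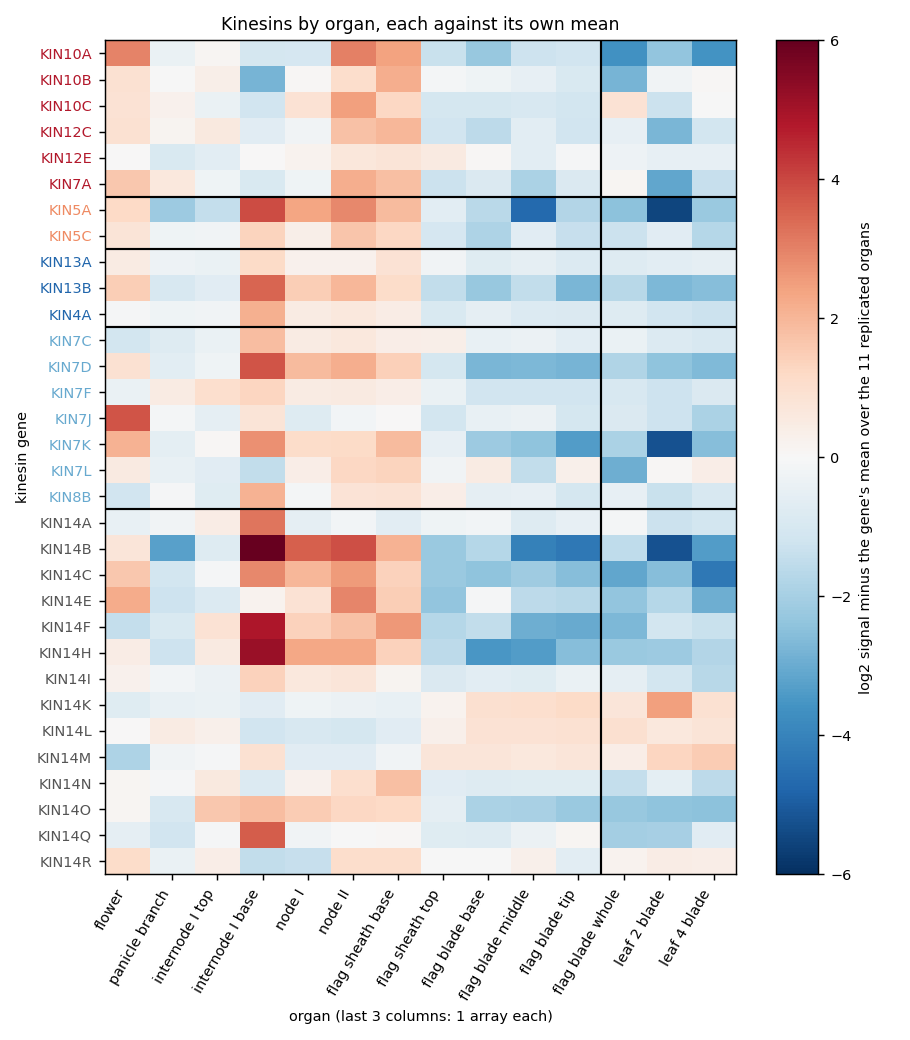
Mean log2 signal of the 32 kinesins (rows, grouped by role with the row names coloured by group) in the 14 organs (columns), each as the difference from that gene's mean over the 11 replicated organs; red is higher and blue is lower. The last 3 columns have 1 array each. Most rows of KIN4, KIN5, KIN13, KIN7 and KIN14 genes are reddest at the base of internode I, while the KIN10 and KIN12 rows are reddest in node II or the sheath base.

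KIN14B had the widest range, 10.31 on the log2 scale between its highest and lowest organ means. Its log2 signal was 11.20, 11.42 and 11.37 on the internode base arrays and 0.37, 1.80 and 0.90 on the blade tip arrays. The array values did not overlap, and the blade value lies far below the median of all values, where a log2 difference overstates what was measured. KIN13A, the gene of the rice mutant small and round seed 3, had a narrow range of 2.00, from 9.90 at the blade tip to 11.90 at the internode base. KIN7F ranged from 9.43 in the middle of the blade to 11.91 at the internode base, and no comparison called it.

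**Figure D2:**
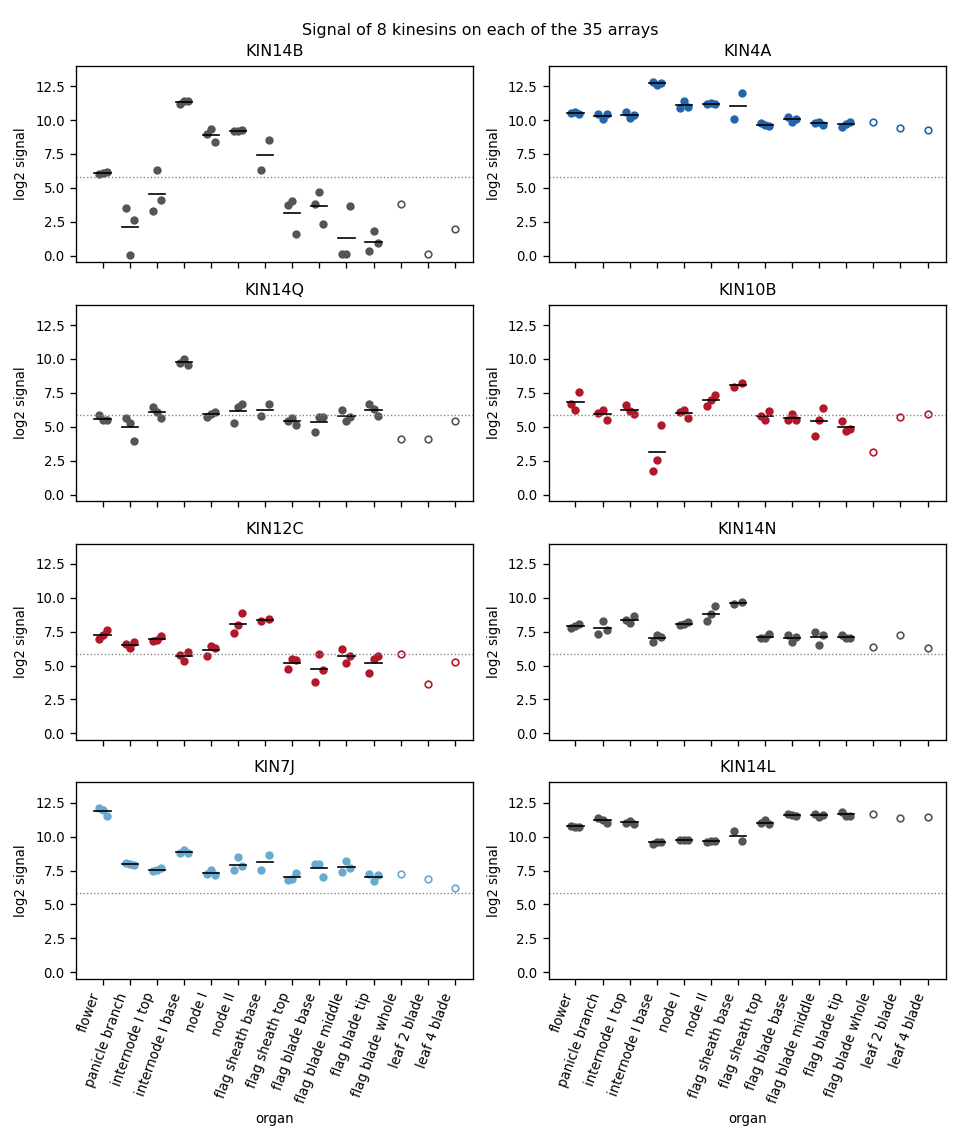
Log2 signal of 8 kinesins on each of the 35 arrays, by organ; filled points are arrays of replicated organs, black lines their means, open points organs with 1 array, and the dotted line the median of all values, 5.83. KIN14B, KIN4A and KIN14Q are highest at the base of internode I, where KIN10B, KIN12C and KIN14N are low; KIN7J stands apart in the flower and KIN14L is highest in the leaf blades.

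The base of internode I is the part joined to node I, and its comparison with the top of the same internode asks how kinesins differ along a stem segment. At the base, 17 of the 32 kinesins were higher and 5 were lower. Of all probe sets tested, 13.8% were called higher and 18.7% lower. The median difference, base minus top, was 1.43 for the kinesins and -0.12 for all probe sets. By role, all 3 KIN4 and KIN13 genes and both KIN5 genes were higher, as were 5 of the 7 other KIN7 and KIN8 genes and 7 of the 14 KIN14 genes. None of the 6 genes of the cytokinesis group (KIN7A, the KIN10 genes and the KIN12 genes) was higher, and 2 of them were lower. With only 6 genes, these counts do not stand apart from the 13.8% and 18.7% of all probe sets.

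KIN4A, listed with the synonyms BC2 and GDD1, is the gene of rice brittle and dwarf mutants with disordered cellulose microfibrils. Its log2 signal was 12.80, 12.61 and 12.72 on the base arrays and 10.59, 10.18 and 10.36 on the top arrays. The groups did not overlap, and the difference was 2.33 ± 0.28 (SE, n = 3 and 3, limma adjusted p = 2.76e-07). KIN13B gave 12.34, 12.09 and 11.91 at the base and 7.78, 7.92 and 8.13 at the top. All base arrays lay above all top arrays, with a difference of 4.17 ± 0.44 (SE, limma adjusted p = 5.59e-08). KIN13B is read at a probe set marked as open to cross-hybridization with similar transcripts.

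The spindle motor KIN5A read 10.92, 10.57 and 10.86 at the base and 6.19, 5.37 and 4.83 at the top. Every base array was higher, by 5.32 ± 0.73 on average (SE, limma adjusted p = 2.08e-06), or 4.86 on the log2(signal + 16) scale, called the damped scale below because it shrinks differences at low signal. The other KIN5 gene, KIN5C, was higher by 1.54 ± 0.43.

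Among the other KIN7 genes, KIN7D had values of 12.69, 12.58 and 12.31 at the base and 8.81, 8.16 and 8.52 at the top. The groups were far apart, at 4.03 ± 0.42 (SE, limma adjusted p = 4.34e-08). KIN7C was higher at the base by 2.27 ± 0.17, KIN7K by 2.69 ± 0.33, KIN7J by 1.32 ± 0.29 and KIN8B by 2.85 ± 0.40. KIN8B, like KIN13B, is read at a probe set marked as open to cross-hybridization. Its other probe set, with a mean of 2.36 over all arrays, was highest in node I and too dim to be tested. KIN7F differed by 0.30 ± 0.18 and KIN7L by -0.81 ± 0.63, and neither was called.

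Of the KIN14 genes, KIN14B read 3.30, 6.30 and 4.14 on the top arrays, all far below its base arrays given above. The difference was 6.75 ± 0.95 (SE, limma adjusted p = 3e-06), or 5.89 on the damped scale. KIN14H had 13.37, 13.19 and 13.11 at the base and 8.74, 8.39 and 8.69 at the top. Every base array was higher, and the difference was 4.62 ± 0.60 (SE, limma adjusted p = 1.18e-06). KIN14F had 11.40, 11.24 and 10.84 at the base and 7.30, 7.39 and 6.82 at the top, a difference of 3.99 ± 1.16 (SE, limma adjusted p = 0.00646). Its groups were separate, and its SE is pooled over all organs, among them the blade tip, where the arrays read 2.49, 1.77 and 5.57. KIN14Q, listed as KCH1, belongs to the kinesins with a calponin homology domain, which can also bind actin filaments. It read 9.67, 10.02 and 9.57 at the base and 6.48, 6.08 and 5.66 at the top, and in no other replicated organ did its mean exceed 6.24. The difference was 3.68 ± 0.41 (SE, limma adjusted p = 1.03e-07). KIN14A, KIN14C and KIN14I, the last listed as the calmodulin-binding kinesin KCBP, were the other KIN14 genes that were higher, by 2.75, 2.95 and 1.73.

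The 5 genes that were lower at the internode base were KIN10B, KIN12C, KIN14L, KIN14N and KIN14R. KIN10B read 1.74, 2.53 and 5.11 at the base and 6.60, 6.15 and 5.94 at the top. The base arrays were all lower but spread widely, and the difference was -3.10 ± 0.57 (SE, limma adjusted p = 9.27e-05), or -1.72 on the damped scale. KIN12C read 5.77, 5.35 and 5.97 at the base and 6.81, 6.85 and 7.17 at the top. Its difference of -1.25 ± 0.43 (SE, limma adjusted p = 0.0192), or -1.03 on the damped scale, lost its call without replicate 2 of the base (adjusted p = 0.0767) and without replicate 3 of the top (adjusted p = 0.0654). KIN14N was lower by -1.39 ± 0.26, KIN14R by -1.85 ± 0.52 and KIN14L by -1.47 ± 0.15. Of the remaining cytokinesis genes, KIN10A (means of 3.12 at the base and 4.28 at the top), KIN10C (4.27 and 5.01) and KIN7A (3.44 and 4.08) lay below the median of all values, and their arrays overlapped between base and top. KIN12E ran the other way, with 6.48, 6.82 and 6.60 at the base and 5.88, 5.71 and 6.33 at the top. Its arrays did not overlap, but its difference of 0.66 ± 0.41 was not called (SE, limma adjusted p = 0.198).

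Other genes that work with microtubules, in the wall or in the cell cycle gave the following counts in the same comparison. All 3 cellulose synthase genes of the secondary wall (CESA4, CESA7 and CESA9) were higher at the internode base, as were all 5 of the primary wall list and 7 of 10 tubulin genes, and none of these was lower. Of 5 mitotic cyclin and B-type CDK genes, 3 were lower and 1, CYCB1-3, was higher, and of 10 DNA replication genes 5 were lower and 1 was higher. CYCB1-1, a cyclin of dividing cells, was lower by -6.05 ± 0.75 (SE, limma adjusted p = 5.44e-07), or by -3.24 on the damped scale. RBCS, a gene of the small subunit of the photosynthetic enzyme Rubisco and the 1 measured gene of the green-leaf list, was lower by -6.36. The part that organ composition has in the kinesin differences was not tested.

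In the flag leaf sheath, the 2 basal arrays did not read the kinesins alike, and this bears on every sheath result below. Replicate 2 exceeded replicate 1 by over 1 on the log2 scale in 13 of the 32 kinesins, against 15.7% of all probe sets tested. In either direction, the arrays differed by over 1 in 15 kinesins, or 46.9%, against 32.6% of all probe sets tested. KIN14F read 6.47 and 11.29, KIN14C 7.50 and 10.68, KIN5A 7.32 and 10.19, and KIN4A 10.07 and 12.00 on replicates 1 and 2. The cytokinesis genes differed less, with KIN10A at 6.45 and 6.69, KIN10B at 7.92 and 8.21, KIN12C at 8.29 and 8.43, KIN7A at 6.05 and 6.26, KIN10C at 6.32 and 6.97, and KIN12E at 7.61 and 7.09. KIN14N, at 9.54 and 9.70, and KIN14O, at 9.87 and 9.85, were close as well. Gene lists differed as well, but not all in the same direction. The mean of the primary wall list was 11.52 and 13.91, of the secondary wall list 9.12 and 11.12, and of the tubulins 12.24 and 13.95. The mitotic list was at 7.65 and 7.93, the DNA replication list at 7.56 and 7.42 and the flower MADS list at 5.26 and 5.63. Lower on replicate 2 were the mean of Lsi2 and Lsi6, at 9.87 and 8.25, and RBCS, at 12.85 and 11.95. The source of the difference between these arrays was not tested.

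**Figure D3:**
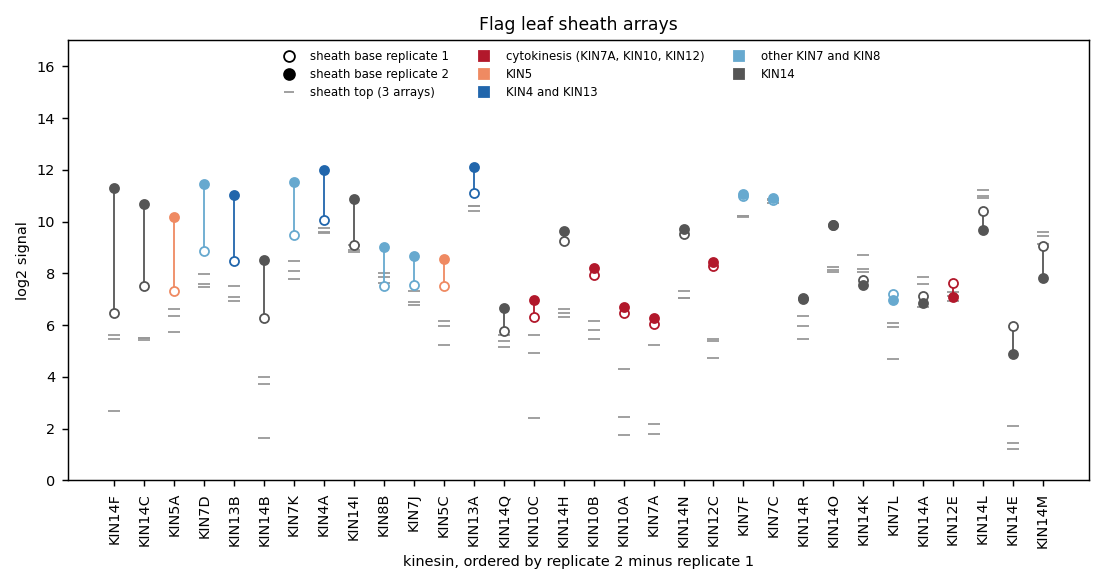
Log2 signal of each kinesin on the 2 sheath base arrays (open circle, replicate 1; filled circle, replicate 2; joined by a line) and the 3 sheath top arrays (grey dashes), ordered by replicate 2 minus replicate 1 and coloured by role. On the left, KIN14F, KIN14C, KIN5A and KIN7D differ widely between the 2 base arrays; KIN10A, KIN10B, KIN12C and KIN14N in the middle have both base arrays together, above all top arrays.

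With both arrays, 20 of the 32 kinesins were higher at the sheath base than at the sheath top and none was lower, while 8.53% of all probe sets were called higher and 9.02% lower. The median difference was 1.98 for the kinesins and -0.05 for all probe sets. By role, 4 of the 6 cytokinesis genes, both KIN5 genes, all 3 KIN4 and KIN13 genes, 3 of the 7 other KIN7 and KIN8 genes and 8 of the 14 KIN14 genes were higher. Leaving out either base array leaves 1 array there. Without replicate 2, the median difference was 1.24 for the kinesins and 0.05 for all probe sets. Without replicate 1, it was 2.38 and -0.13. Over the alternatives run, the difference stayed between 2.70 and 3.46 for KIN12C, 2.75 and 3.17 for KIN14H, 2.35 and 2.63 for KIN14N, and 1.64 and 1.78 for KIN14O. It moved between 1.88 and 6.69 for KIN14F and between 0.15 and 1.91 for KIN14I.

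KIN12C read 8.29 and 8.43 at the sheath base and 4.74, 5.47 and 5.38 at the top. The groups were apart by 3.17 ± 0.48 (SE, n = 2 and 3, limma adjusted p = 3.65e-05), or 2.70 on the damped scale. KIN14N read 9.54 and 9.70 at the base and 7.04, 7.06 and 7.30 at the top. Its difference of 2.48 ± 0.29 (SE, limma adjusted p = 1.93e-06) was 5.58-fold. KIN14O, at 8.13, 8.25 and 8.06 at the top, was higher at the base by 1.71 ± 0.19 (SE, limma adjusted p = 9.72e-07), with no overlap.

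KIN10A, listed as STD1 after the rice mutant stemless dwarf 1, read 6.45 and 6.69 at the sheath base and 1.75, 2.45 and 4.31 at the top. It was higher by 3.73 ± 1.33 (SE, limma adjusted p = 0.0382), or 2.17 on the damped scale, and lost its call without any 1 of 4 arrays: each base array and replicates 1 and 2 of the top (adjusted p of 0.0907 to 0.205). KIN10B was higher by 2.26 ± 0.64 and KIN10C by 2.32 ± 0.84, or by 1.97 and 1.53 on the damped scale. Without replicate 2 of the base, neither passed, at an adjusted p of 0.108 for KIN10B and 0.281 for KIN10C. KIN10C did not pass either without replicate 1 of the base (adjusted p = 0.0644) or replicate 2 of the top (adjusted p = 0.243). KIN7A, listed as NACK and DBS1, is of the type that in tobacco starts phragmoplast expansion. It read 6.05 and 6.26 at the base and 5.22, 2.19 and 1.78 at the top, so the arrays did not overlap, but its difference of 3.10 ± 1.51 did not pass (SE, limma adjusted p = 0.135).

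KIN14B read 6.29 and 8.51 at the sheath base and 3.73, 4.00 and 1.62 at the top. The difference was 4.28 ± 1.06 (SE, limma adjusted p = 0.00366), or 2.85 on the damped scale, and 3.17 with an adjusted p of 0.133 without replicate 2 of the base. KIN14F read 2.69, 5.47 and 5.63 at the top, below both base arrays. It differed by the same 4.28 with both base arrays, at an SE of 1.29, but by 1.88 without replicate 2 of the base (adjusted p = 0.495), and it did not pass without replicate 1 of the top (adjusted p = 0.0808). KIN14C, at 5.51, 5.50 and 5.43 at the top, was higher at the base by 3.61 ± 0.60, or 3.24 on the damped scale. KIN14E read 5.95 and 4.89 at the base and 1.23, 1.46 and 2.11 at the top, with no overlap. It was higher by 3.82 ± 1.04, or 1.64 on the damped scale, and did not pass without replicate 1 of the base (adjusted p = 0.0603). KIN4A was higher by 1.40 ± 0.31 with both base arrays and by 0.43 without replicate 2, where its adjusted p was 0.209.

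In the sheath, 3 of the 5 mitotic genes, 4 of the 10 DNA replication genes, all 10 tubulin genes and all 3 secondary and 5 primary wall genes were higher at the base, and none was lower. CYCB1-1 was higher by 4.08 ± 0.84 (SE, limma adjusted p = 0.000796), or 3.49 on the damped scale. RBCS was lower there, by -2.29.

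The 2 comparisons of base with top share no arrays, and their gene lists are set against each other here. Both use the same spread of each probe set, pooled over all replicated organs, so the lists are not independent. KIN4A, KIN5A, KIN5C, KIN7D, KIN7J, KIN7K, KIN13A, KIN13B, KIN14B, KIN14C, KIN14F, KIN14H and KIN14I were higher at both bases, which is 76.5% of the 17 genes higher at the internode base and 65% of the 20 higher at the sheath base. Of all probe sets tested, 1800, or 4.65%, were called higher at both, to be set beside 13 of the 32 kinesins. The shares of 76.5% and 65% have another base. For all probe sets, the same 1800 were among 5351 higher at the internode base and 3297 higher at the sheath base. Without replicate 2 of the sheath base, the 13 genes became 3 (KIN7K, KIN14C and KIN14H) and the share of all probe sets 1.46%. The difference between the internode and the sheath was tested as a contrast of the base-minus-top differences, with the same 2-fold and adjusted p limits. It passed for 10 of the 32 kinesins and for 17.3% of all probe sets tested. The kinesin count was 16 on the damped scale, and it also rose without replicate 2 of the sheath base, which leaves 1 array there. The share of all probe sets is not given for these settings, so neither rise can be read as particular to kinesins.

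In 5 of those 10 genes, the internode difference was below the sheath difference. KIN10B and KIN12C of the cytokinesis group and KIN14N were called lower at the internode base and higher at the sheath base, and internode minus sheath was -5.36 ± 0.86 for KIN10B (SE, limma adjusted p = 6.97e-05), -4.42 ± 0.64 for KIN12C (adjusted p = 2.18e-05) and -3.87 ± 0.39 for KIN14N (adjusted p = 1.96e-07). KIN14R, at -2.96 ± 0.79, and KIN14O, at -1.48 ± 0.25, passed as well. KIN10A and KIN10C had contrasts of -4.89 ± 1.78 and -3.06 ± 1.13 and did not pass, at an adjusted p of 0.0527 and 0.0557.

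In the other 5 genes, KIN7C, KIN8B, KIN14A, KIN14M and KIN14Q, the internode difference was above the sheath difference. KIN14A read 10.91, 10.83 and 10.75 at the internode base and 7.11 and 6.86 at the sheath base. It lay near its sheath base level in the other organs, between 6.86 in the middle of the blade and 8.08 at the internode top, and its contrast was 3.15 ± 0.52 (SE, limma adjusted p = 0.000103). KIN14Q had a contrast of 2.85 ± 0.61, KIN7C of 2.21 ± 0.25 and KIN8B of 2.41 ± 0.61. KIN14M, at 1.92 ± 0.32, was called in neither base comparison. Without replicate 1 of the sheath base, the KIN8B contrast was 1.66 and did not pass (adjusted p = 0.072).

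**Figure D4:**
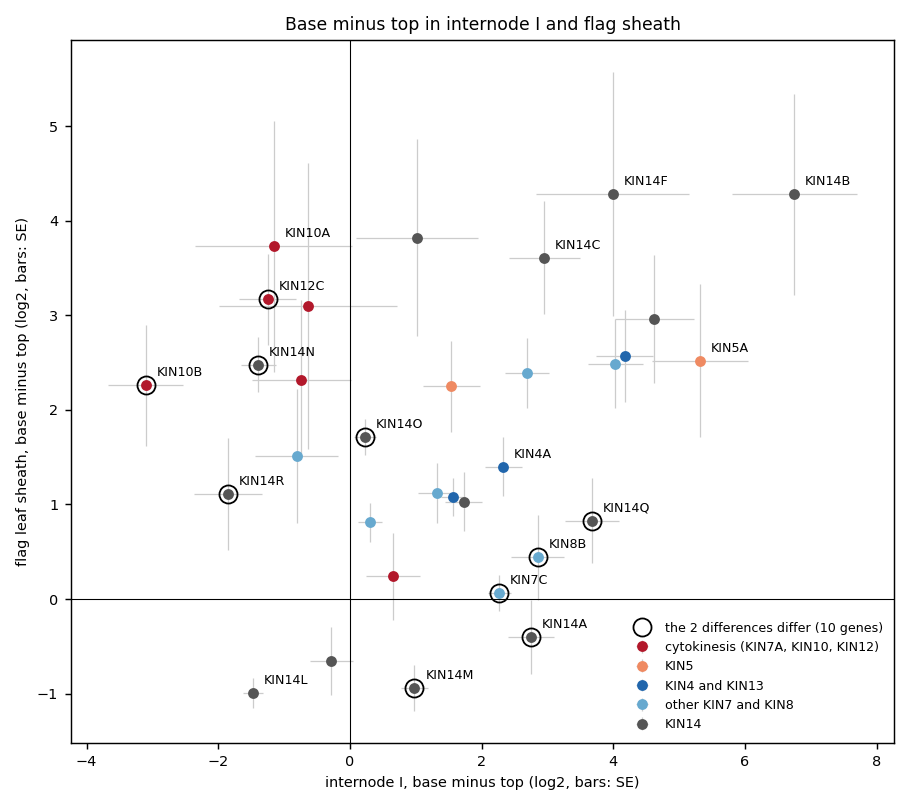
Base minus top on the log2 scale in internode I (horizontal) and the flag leaf sheath (vertical) for the 32 kinesins, with SE bars and colours by role; rings mark the 10 genes whose 2 differences differ from each other. KIN14B and KIN5A lie to the upper right, KIN10B, KIN12C and KIN14N to the upper left, and KIN14A, KIN7C, KIN8B and KIN14Q on the right near 0 on the vertical axis.

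Node I adjoins the internode base and shares its 3 arrays with the comparison along the internode, so the values here are not independent of it. In node I, 4 kinesins were higher than at the internode base and 13 were lower, against 16.2% and 12.9% of all probe sets, and the median difference was -0.91 for the kinesins and 0.07 for all probe sets. KIN14Q read 5.72, 5.96 and 6.12 in node I, all below its internode base arrays, with a difference of -3.82 ± 0.41 (SE, limma adjusted p = 7.56e-08). KIN14A read 7.49, 6.82 and 6.96 in node I and differed by -3.74 ± 0.35 (SE, limma adjusted p = 1e-08). For both, node I was near the level of the other organs. KIN14F read 7.23, 8.72 and 7.08 in node I and was lower by -3.48 ± 1.16. KIN14H read 10.21, 10.75 and 10.17 and was lower by -2.85 ± 0.60, and KIN14B read 8.99, 9.37 and 8.40 and was lower by -2.41 ± 0.95. In all 3 genes, node I lay below every internode base array. The KIN14F call was lost without replicate 1 or 3 of node I (adjusted p of 0.0549 and 0.0606), and the KIN14B call without any 1 of the 6 arrays (adjusted p of 0.0557 to 0.122).

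KIN10B, KIN10C, KIN7L and KIN14N were the genes that were higher in node I than at the internode base. KIN10B read 6.06, 6.24 and 5.65 in node I, above all its base arrays, and differed by 2.86 ± 0.57 (SE, limma adjusted p = 0.000279), or 1.52 on the damped scale. KIN10C differed by 2.00 ± 0.75 and KIN7L by 1.90 ± 0.63, or 1.33 and 1.27 on the damped scale, and KIN14N by 1.07 ± 0.26. The KIN10C call was lost without any 1 array of node I and without replicate 1 or 3 of the base (adjusted p of 0.0607 to 0.146), and the KIN7L call without replicate 2 or 3 of the base (adjusted p of 0.062 and 0.085). Without replicate 1 of the base, KIN14N differed by 0.92, which is under the 2-fold limit.

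Few genes separated node II from node I. KIN14R was the 1 kinesin called, among 0.0724% of all probe sets called higher and 0.124% called lower. It read 6.11, 7.36 and 7.65 in node II and 5.84, 3.26 and 4.66 in node I, a difference of 1.81 on the damped scale, and its call (limma adjusted p = 0.047) was lost without replicate 2 or 3 of either node (adjusted p of 0.126 to 0.175). At an unadjusted p under 0.05, 9 kinesins were higher in node II and none was lower, against 3.78% and 4.96% of all probe sets. KIN12C read 7.43, 8.00 and 8.86 in node II and 5.67, 6.45 and 6.26 in node I, with no overlap, a difference of 1.97 ± 0.43 and a limma adjusted p of 0.0507. KIN10A read 6.54, 6.91 and 8.16 in node II and 3.08, 5.15 and 1.24 in node I, with no overlap, and did not pass either, at 4.05 ± 1.19, or 2.53 on the damped scale, and an adjusted p of 0.21. None of the 5 mitotic genes was called in this comparison, and their median difference was 2.57, node II minus node I.

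The flower carries the organs in which pollen and ovules form, and the panicle branch bears it. Relative to the branch, 12 kinesins were higher in the flower and 2 were lower, against 12.7% and 15.9% of all probe sets, and the median difference was 0.91 for the kinesins and -0.18 for all probe sets. KIN7J stood out by its organ: it read 12.11, 11.99 and 11.53 in the flower and 8.09, 7.96 and 7.94 in the panicle branch, and its next highest organ mean was 8.87 at the internode base. The flower was higher by 3.88 ± 0.29 (SE, n = 3 and 3, limma adjusted p = 4.07e-10), or 14.7-fold. KIN7K read 10.67, 10.77 and 10.69 in the flower and 8.00, 7.99 and 8.02 in the branch, with a difference of 2.71 ± 0.33 (SE, limma adjusted p = 5.9e-07).

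KIN5A read 8.00, 8.24 and 7.95 in the flower and 5.49, 4.05 and 4.54 in the panicle branch. The groups did not overlap, and the difference was 3.37 ± 0.73 (SE, limma adjusted p = 0.000584), or 2.73 on the damped scale. KIN14B read 5.99, 6.07 and 6.18 in the flower and 3.54, 0.05 and 2.66 in the branch, so that its difference of 4.00 ± 0.95 shrank to 1.94 on the damped scale. KIN14E read 5.69, 5.89 and 6.96 in the flower and 2.85, 2.82 and 2.42 in the branch, a difference of 3.48 ± 0.93, or 1.99 on the damped scale. KIN10A read 7.25, 6.33 and 7.84 in the flower and 3.12, 4.82 and 3.47 in the branch, a difference of 3.33 ± 1.19, or 2.35 on the damped scale. Neither gene's arrays overlapped. The KIN10A call was lost without replicate 1 or 3 of the flower or of the branch (adjusted p of 0.0618 to 0.0882).

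KIN14M and KIN8B were the 2 kinesins that were lower in the flower. KIN14M read 6.84, 6.85 and 6.77 in the flower and 8.40, 8.67 and 8.30 in the branch, with a difference of -1.64 ± 0.21 (SE, limma adjusted p = 1.33e-06). KIN8B was lower by -1.12 ± 0.40, and its call was lost on the deposited scaling (adjusted p = 0.147) and without replicate 1 or 3 of the flower or replicate 1 of the branch (adjusted p of 0.0918 to 0.122). Of the other lists, 3 of 5 mitotic genes, 7 of 10 tubulin genes, 1 of 10 DNA replication genes, all 3 secondary and 4 of 5 primary wall genes and all 7 flower MADS genes were higher in the flower than in the branch, and RBCS was lower, by -1.75.

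The panicle branch and the internode top, which lies below it, differed in 1 kinesin, while 1.79% of all probe sets were called higher and 1.64% lower in the branch. KIN14O read 8.07, 7.70 and 7.43 in the panicle branch and 10.74, 10.06 and 10.02 at the internode top, with a difference of -2.54 ± 0.17 (SE, limma adjusted p = 5.21e-09). Its arrays were separate, and its means in the stem organs were between 9.92 and 10.50 against 6.45 at the blade tip. At an unadjusted p under 0.05, 7 kinesins were lower in the branch and none was higher, against 9.78% and 8.23% of all probe sets.

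Along the flag leaf blade, none of the 32 kinesins was called between base and tip in limma, and 0.468% of all probe sets were called in either direction. At an unadjusted p under 0.05, 3 were higher at the blade base (KIN7J, KIN7K and KIN14B) and 1, KIN14Q, was lower, against 4.84% and 4.59% of all probe sets. KIN7K, the nearest to a call, read 6.24, 6.43 and 6.58 at the blade base and 5.15, 4.78 and 5.81 at the tip, without overlap, with a difference of 1.17 ± 0.33 and an adjusted p of 0.135.

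**Figure D5:**
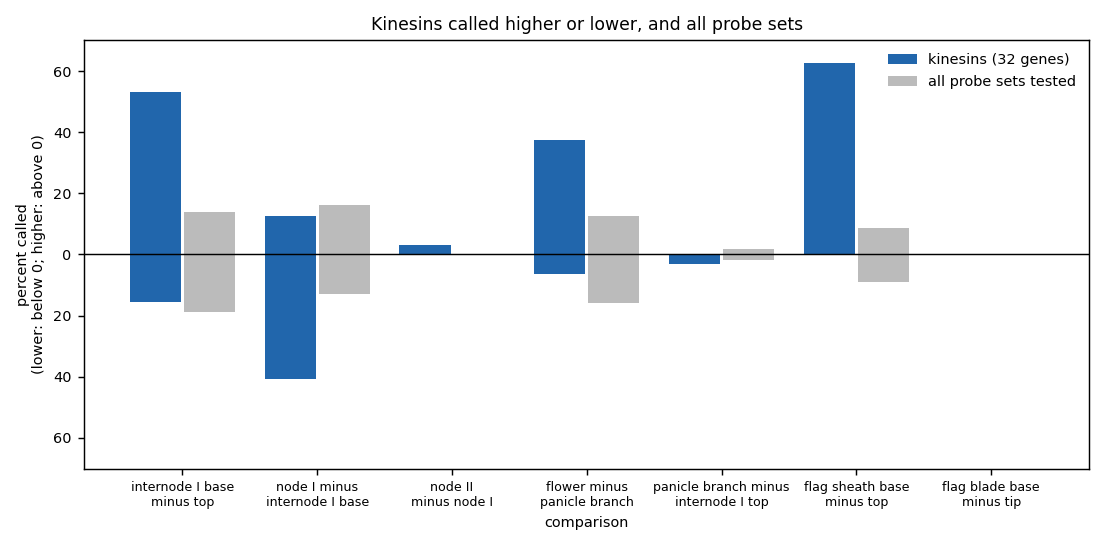
Percent of the 32 kinesins (blue) and of all 38673 probe sets tested (grey) called higher (above 0) or lower (below 0) in each of the 7 comparisons. Kinesins called higher at the internode base (53.1%), at the sheath base (62.5%) and in the flower (37.5%) stand above the grey bars, as do those called lower in node I (40.6%); the comparisons of both nodes, of the panicle branch with the internode top and along the blade hold few calls of either kind.

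KIN14K and KIN14L ran the other way from most of the family, with their highest means in the blade. KIN14L read 11.83, 11.53 and 11.55 at the blade tip, 11.67, 11.35 and 11.48 on the undivided blades of flag leaf, leaf 2 and leaf 4, and 9.46, 9.63 and 9.63 at the internode base. It was between 9.64 and 9.78 on every array of both nodes, so the blade and the lower stem organs did not overlap. KIN14K ranged from a mean of 7.38 in the flower to 9.26 at the blade tip, at a probe set marked as open to cross-hybridization. No comparison called it at that probe set. Its other probe sets were also highest at the blade tip. The 1 without that mark is dim, with a mean of 4.43 over all arrays. There the flower was lower than the panicle branch by -2.46 (limma adjusted p = 0.0103), which meets the limits for a call. KIN7A, KIN7F and KIN12E were the other genes that no comparison called at the probe set read.

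The pattern over the 11 replicated organ means was set beside the mean of 3 lists, as a description over points that share arrays and scaling. The share of all probe sets with an equally high r is not given, so the counts below have no background. The secondary wall and tubulin lists were highest at the internode base, as were 18.4% of all probe sets tested. Pearson's r with the mitotic list was above 0.8 for KIN10A (0.96), KIN12C (0.96), KIN7A (0.91), KIN14N (0.89) and KIN10C (0.84). With the secondary wall list it was above 0.8 for 13 genes, among them KIN14C, KIN14H and KIN7D at 0.96 and KIN13B and KIN14I at 0.95, and it was -0.88 for KIN14L and -0.84 for KIN14K. With the tubulins it was above 0.8 for 13 genes, with the highest value, 0.97, for KIN14C. Median r over the 32 genes was 0.55 with the mitotic list, 0.62 with the secondary wall list and 0.68 with the tubulins. Among the 496 pairs of kinesins the median r was 0.47, and 42 pairs exceeded 0.9. The pair most alike was KIN14H and KIN7D, at 0.98.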

How the data were processed

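The deposited values are signal intensities per probe set on a linear scale, 1 column per array, which the authors scaled to a trimmed mean of about 500 per array (500.06 to 500.08 as computed from the files). Labelling used the Affymetrix one-cycle kit, per the labels' protocols; the tool that summarised the probes was not given in the sources used here. Depth has no meaning for arrays, whose number limits the precision.

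Probe sets were named through the platform annotation and RefSeq's gene table. Values under 1 were set to 1 (2 kinesin values), logged and quantile normalized over all 35 arrays, because array medians differed. Control probe sets (123) were left out. The test took in probe sets that reached the overall median on 3 or more of the 32 arrays of replicated organs, with limma 3.58.1 in R 4.3.3, 1 mean per organ for 11 organs, 21 residual degrees of freedom and Benjamini-Hochberg adjustment within each of 7 comparisons. The fit was checked on simulated data. Intervals are given as SE.

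The members and gene lists were chosen with earlier results of these data known. For each comparison, up to 6 called members of largest change are given with their arrays, and the 3 genes brightest over all arrays are described; other members were named for their role, for a small count or after their values were seen. List names that matched several genes were dropped, and a list of other microtubule proteins matched no gene. The contrast of internode and sheath was added after seeing the data. Alternatives were other scalings, filters, pseudocounts and sample sets. Protein and promoter sequences were not used here, and the annotation's genome build is not given, so no coordinates are printed.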

Additional observations from a re-analysis of the deposited data

Results flagged for a closer look

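The difference between base and top differed between internode I and the flag leaf sheath in 10 kinesins, as tested by a contrast of both differences in limma. Internode minus sheath was -5.36 for KIN10B, -4.42 for KIN12C, -3.87 for KIN14N, -2.96 for KIN14R and -1.48 for KIN14O. It was 3.15 for KIN14A, 2.85 for KIN14Q, 2.41 for KIN8B, 2.21 for KIN7C and 1.92 for KIN14M. Of the 16 alternatives run for this contrast, none changed the sign of these values, and KIN8B without replicate 1 of the sheath base was the 1 case that did not pass. No group of 4 or more arrays existed, so no array was tested as an outlier.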

How the results depend on the processing

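No called difference of a kinesin changed sign under any alternative run. Each called kinesin was followed only through the alternatives in which it was tested. The stricter filter left 22 of the 32 kinesins to test, and leaving out cross-hybridizing probe sets left 30. Called under every alternative that tested them were 21 of 22 along the internode, 11 of 17 in node I and 9 of 14 in the flower. The same held for 1 of 1 in the panicle branch, 4 of 20 in the sheath (KIN12C, KIN14H, KIN14N and KIN14O) and 0 of 1 in node II. With only the arrays of the groups compared, 6 kinesins were higher at the sheath base, none in node II and 2 were lower in the panicle branch; leaving out 1 sheath base array gave 3 to 13 kinesins higher at both bases, a check chosen after seeing the data; leaving out 1 array gave 7 to 19 higher and 0 to 2 lower at the sheath base, 0 to 2 higher in node II, 2 to 3 higher in node I and 1 to 3 lower in the flower. On the deposited scaling, 2 were lower at the sheath base, 2 were higher in node II and 1 was lower in the flower. With array medians set equal, 2 were higher in node II. On log2(signal + 16), 3 were higher in node II, 1 was lower in the flower, 2 were lower in the panicle branch and 16 passed the contrast of internode and sheath, which leaving out 1 array moved between 10 and 16. With no filter, or without cross-hybridizing probe sets, 0 were higher in node II; under the stricter filter, which 22 kinesins passed, 0 were higher in node II, 1 was higher in node I and 2 were lower at the internode base. With hybridization controls set equal, an alternative chosen after seeing the data, 1 was lower in the flower, and the median of all probe sets shifted to 0.33 in node I, 0.22 in the panicle branch, -0.19 at the internode base and -0.17 at the blade base. With the replicate block, 17 kinesins were higher and 1 was lower at the sheath base and 2 were higher in node II, and the other counts did not change; same-numbered arrays of the groups compared deviated from their group means with r of -0.11 to 0.06, and 20 of 32 arrays deviated most like arrays of their own number. Low signal limits 17 of the 32 kinesins, which had at least 1 organ mean below the median of all values.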
